A study of Homo sapiens with 6 samples.

Results

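Of 9 genes of MHC class I antigen presentation, 8 were measured in T24, an established human line of bladder cancer cells. TAP2 among them rose when oxidized low-density lipoprotein (ox-LDL) was added, but this call was lost in 9 of 17 alternative settings. Among all probe sets tested, 3.48% passed higher. The list of genes was chosen with earlier results of these data known. All probe sets under their symbols in the array's annotation were then kept, whatever their values. HLA-C, HLA-E, HLA-F, B2M, TAP1, TAP2, TAPBP and NLRC5 had 1 probe set each, 8 of 21448 probe sets tested. HLA-B had no probe set under its symbol in that annotation and was not analysed here. Ox-LDL is a plasma lipoprotein whose lipid and protein have been oxidized. The vehicle group was T24 cells kept without serum for 12 h and then given vehicle for 24 h. The ox-LDL group was T24 cells treated in the same way, with ox-LDL at 20 µg/mL in place of vehicle. Serum at 10% is recorded for both groups, beside the 12 h without it. There were 3 arrays in each group, from 1 sample each, and the question was which transcripts ox-LDL changed. Whether samples of 1 group came from separate cultures is not stated, so the p-values reflect the spread among these samples alone, which may be technical.

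MHC class I molecules show peptides from inside the cell to CD8 T cells and are inspected by natural killer cells. Proteasomes cut cytosolic proteins, the TAP1-TAP2 transporter pumps the peptides into the endoplasmic reticulum, and tapasin (TAPBP) holds an empty class I molecule next to the transporter until a peptide binds. The finished complex is a heavy chain, a light chain (B2M) and a peptide. NLRC5 is the transactivator of class I genes, and interferons and NF-kB also act on their promoters. Tumours often lose part of this route, which hides them from T cells.

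The third vehicle array stood apart. Over all probe sets it correlated with the rest at 0.979 to 0.988, whereas the remaining 5 correlated among themselves at 0.992 to 0.997, so differences and list medians that moved by over 1.5 times without it are also given without it. The keratins KRT7, KRT8 and KRT18, markers of urothelial tumour cells, had mean log2 values of 11.97, 12.10 and 11.89 in vehicle, whereas CDH1, UPK1B and UPK3A did not exceed the 95th percentile of the negative controls (log2 5.21) in either group. Leukocytes carry much class I. Of 8 leukocyte markers measured, PTPRC, MS4A1, LYZ and FCGR3A did not exceed that percentile, while CD3E, CD14, CD68 and NKG7 did. CD14, CD68 and NKG7 had mean log2 values of 7.54, 8.07 and 7.63 in vehicle. For CD14 and NKG7 every ox-LDL array was below every vehicle array. None of the 8 passed the test (limma, smallest adjusted p 0.0528 for NKG7). The mean log2 level of the 8 markers was 5.72 to 5.87 on vehicle arrays and 5.55 to 5.65 on ox-LDL arrays, and the part of this in the results was not tested. One label field names siRNA against G9a instead of ox-LDL, and EHMT2, which encodes G9a, was higher on every ox-LDL array than on every vehicle array, by 0.37 on the log2 scale (SE 0.12), without passing (limma adjusted p = 0.125).

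The peptide transporter had the largest differences among the 8 genes. TAP2, one of its subunits, had log2 values of 8.04, 8.20 and 8.08 in vehicle and 8.50, 8.63 and 8.43 after ox-LDL. Every ox-LDL array was above every vehicle array. In RNA from a whole culture, more cells with the transcript and more transcript per cell cannot be told apart. The mean went from 8.11 ± 0.084 to 8.52 ± 0.10 (SD, n = 3 each). The rise was 1.33-fold, or 0.41 on the log2 scale (SE 0.086, 95% confidence interval 0.21 to 0.62, limma adjusted p = 0.0378). TAP1, the partner subunit, had 7.20, 7.48 and 7.09 in vehicle and 7.76, 7.61 and 7.61 after ox-LDL. Its groups did not overlap either, but vehicle replicate 2 came close to the ox-LDL arrays and the vehicle values were spread more widely than those of TAP2. The TAP1 mean was 7.26 ± 0.20 in vehicle and 7.66 ± 0.088 with ox-LDL (SD, n = 3 each), a log2 difference of 0.40 (SE 0.12, 95% confidence interval 0.13 to 0.68) that did not pass (limma adjusted p = 0.0891). The 2 subunits thus had nearly the same difference and were separated by their spread. Their log2 values had a correlation of 0.88 over the 6 arrays, a description that includes the difference between the groups.

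The TAP2 call was close to the threshold. It held without vehicle replicate 3 (log2 difference 0.40, adjusted p = 0.0383) but was lost without any 1 of the other arrays: leaving out vehicle replicate 1 or 2 gave an adjusted p of 0.0874 or 0.0644, and leaving out ox-LDL replicate 1, 2 or 3 gave 0.142, 0.159 or 0.0990. Its log2 difference stayed between 0.36 and 0.46 in these fits. TAP1 did not pass in any of them, with a log2 difference of 0.32 without vehicle replicate 3 (adjusted p = 0.106) and of 0.51 without vehicle replicate 2 (adjusted p = 0.0511).

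**Figure D1:**
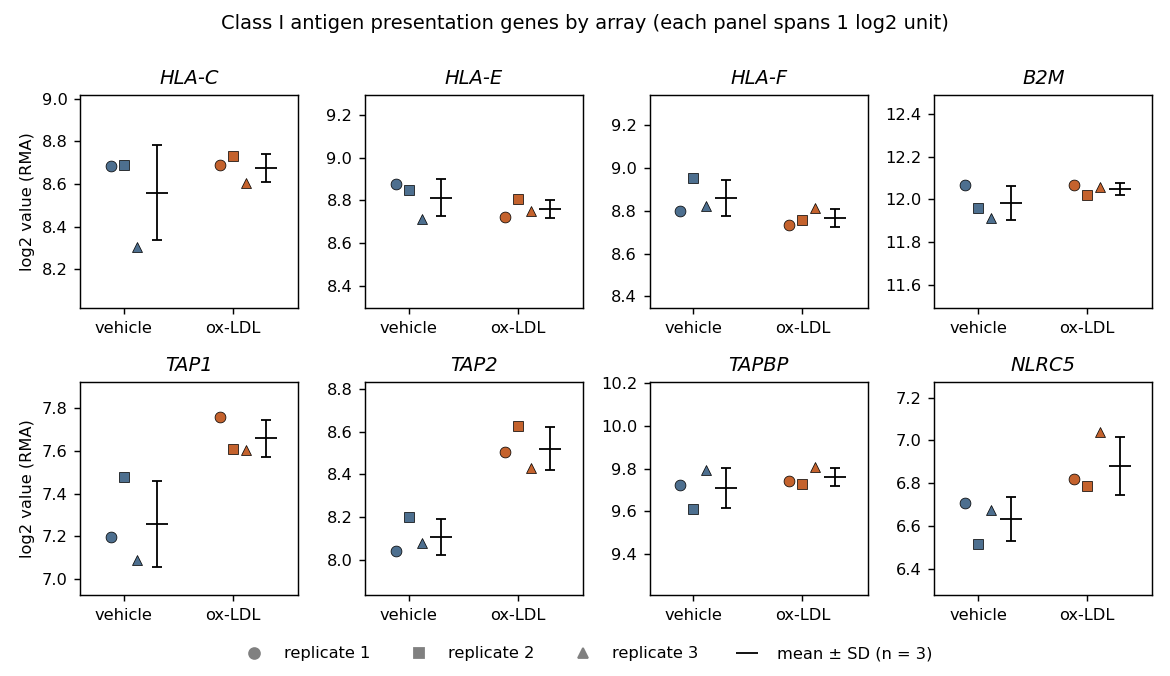
Log2 values (RMA) of the 8 class I presentation genes, 1 panel per gene and 1 symbol per array, with vehicle in blue, ox-LDL in orange and black bars for the mean ± SD (n = 3). The ox-LDL arrays lie above all vehicle arrays for TAP1, TAP2 and NLRC5, while the groups overlap for HLA-C, HLA-E, HLA-F, B2M and TAPBP.

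The sequences before the starts of the transporter genes are shown beside those of 3 members whose groups overlapped, since all belong to a family of genes known to answer to interferon and NF-kB. The sequences are from a RefSeq table (GRCh38.p14), in which 6 of the 8 measured members were matched by symbol, all but HLA-E and NLRC5. Each line gives the 250 bases before the annotated start (the outermost one where there are several), 5′ to 3′ on the gene's own strand. Capitals mark an interferon response element-like motif (GAAANNGAAA) or the NF-kB consensus motif on either strand, and adjacent matches that overlap run together. Both motifs are textbook patterns, but they were chosen after the sequences of these genes had been seen, so matches in them are shown as a description only.
TAP1, chr6:32853705-32853954, minus strand: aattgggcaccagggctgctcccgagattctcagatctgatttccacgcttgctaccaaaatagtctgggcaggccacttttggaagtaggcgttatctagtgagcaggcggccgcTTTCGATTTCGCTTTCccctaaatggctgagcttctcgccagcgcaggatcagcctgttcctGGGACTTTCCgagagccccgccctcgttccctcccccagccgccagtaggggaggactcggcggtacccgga
TAP2, chr6:32838740-32838989, minus strand: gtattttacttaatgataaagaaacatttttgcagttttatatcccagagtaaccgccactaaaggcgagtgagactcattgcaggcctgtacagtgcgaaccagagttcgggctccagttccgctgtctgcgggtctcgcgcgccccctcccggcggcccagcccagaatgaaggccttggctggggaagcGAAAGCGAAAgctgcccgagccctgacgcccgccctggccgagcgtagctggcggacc
TAPBP, chr6:33314079-33314328, minus strand: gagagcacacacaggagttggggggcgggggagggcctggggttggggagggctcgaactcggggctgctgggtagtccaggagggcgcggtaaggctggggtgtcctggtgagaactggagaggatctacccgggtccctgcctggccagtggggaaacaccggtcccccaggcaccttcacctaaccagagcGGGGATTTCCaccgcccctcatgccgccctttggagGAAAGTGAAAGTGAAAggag
B2M, chr15:44711267-44711516, plus strand: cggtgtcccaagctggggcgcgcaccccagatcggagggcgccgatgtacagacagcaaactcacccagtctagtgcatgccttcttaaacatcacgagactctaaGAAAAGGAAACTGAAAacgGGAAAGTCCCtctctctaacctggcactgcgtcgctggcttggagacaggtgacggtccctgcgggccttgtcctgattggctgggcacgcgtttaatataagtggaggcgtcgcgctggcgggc
HLA-C, chr6:31272093-31272342, minus strand: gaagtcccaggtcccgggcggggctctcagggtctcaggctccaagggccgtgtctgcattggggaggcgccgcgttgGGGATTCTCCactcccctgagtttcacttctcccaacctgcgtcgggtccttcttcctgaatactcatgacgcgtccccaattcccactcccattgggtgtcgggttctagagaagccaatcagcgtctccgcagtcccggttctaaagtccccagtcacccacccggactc

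The interferon response element-like motif was in the windows of TAP1, TAP2, TAPBP and B2M, and in that of HLA-F (not shown), but not in that of HLA-C. It was in 3.02% of all 35116 windows of this length in the table. In TAP1 its 2 overlapping matches lay 134 to 119 bases before the start, in TAP2 its 1 match lay 58 to 49 bases before it, and in TAPBP its 2 matches lay 20 to 5 bases before it. The NF-kB motif was in the windows of TAP1, TAPBP, B2M and HLA-C, and in 9.96% of all windows. A match is a description of the letters, not of a bound site, and a window without a match may hold a variant that the pattern does not read.

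NLRC5, the class I transactivator, had log2 values of 6.70, 6.51 and 6.67 in vehicle and 6.82, 6.79 and 7.04 after ox-LDL. The groups did not overlap, with ox-LDL replicate 3 the highest and vehicle replicate 2 the lowest. The mean was 6.63 ± 0.10 in vehicle and 6.88 ± 0.14 with ox-LDL (SD, n = 3 each), a log2 difference of 0.25 (SE 0.099, 95% confidence interval 0.017 to 0.48) that did not pass (limma adjusted p = 0.169). It was 0.17 without ox-LDL replicate 3 and 0.27 without vehicle replicate 3.

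HLA-C, HLA-E and HLA-F, the heavy chains among the members, showed no such separation. HLA-C, a classical heavy chain that also serves as a ligand of natural killer cell receptors, had log2 values of 8.68, 8.69 and 8.30 in vehicle and 8.69, 8.73 and 8.60 after ox-LDL. Vehicle replicate 3 was far below the other 5 arrays, which lay close together. The log2 difference was 0.11 (SE 0.12, 95% confidence interval -0.17 to 0.40, limma adjusted p = 0.557), and without vehicle replicate 3 it was -0.013 (SE 0.063, adjusted p = 0.916). Heavy chain genes share long stretches of sequence, so a probe set named for one of them may also read the others, and these values are uncertain to that extent.

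HLA-E, which presents leader peptides of other class I chains to the NKG2A receptor of natural killer cells, had 8.88, 8.85 and 8.71 in vehicle and 8.72, 8.80 and 8.75 after ox-LDL. The ox-LDL values fell within the vehicle range. Its log2 difference was -0.054 (SE 0.077, 95% confidence interval -0.24 to 0.13, adjusted p = 0.671), and became -0.10 when vehicle replicate 3 was left out (adjusted p = 0.297) and -0.022 without vehicle replicate 1. HLA-F, a nonclassical chain found at the cell surface partly without peptide, had 8.80, 8.96 and 8.82 in vehicle and 8.73, 8.76 and 8.81 after ox-LDL. Vehicle replicate 2 was the highest array and the groups overlapped. Its log2 difference was -0.091 (SE 0.076, 95% confidence interval -0.27 to 0.090, adjusted p = 0.467), and -0.043 without vehicle replicate 2.

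B2M, the light chain that every classical class I molecule needs, had 12.07, 11.96 and 11.91 in vehicle and 12.07, 12.02 and 12.06 after ox-LDL. The groups overlapped through vehicle replicate 1. The log2 difference was 0.068 (SE 0.074, 95% confidence interval -0.11 to 0.24, limma adjusted p = 0.575), or 0.034 without vehicle replicate 3 and 0.11 without vehicle replicate 1. TAPBP, the bridge between transporter and heavy chain, had 9.73, 9.61 and 9.79 in vehicle and 9.74, 9.73 and 9.81 after ox-LDL. The ox-LDL values lay in the upper part of the vehicle range, with ox-LDL replicate 3 just above it. The TAPBP log2 difference was 0.050 (SE 0.078, 95% confidence interval -0.14 to 0.24, adjusted p = 0.701), and its sign turned after cyclic loess normalization (-0.014). It was 0.092 without vehicle replicate 3 and -0.00014 without vehicle replicate 2.

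For HLA-E, HLA-F, B2M and TAPBP the upper bounds of the intervals were 0.13, 0.090, 0.24 and 0.24, all below the estimates of 0.41 and 0.40 for TAP2 and TAP1. Those estimates are themselves uncertain, with lower bounds of 0.21 for TAP2 and 0.13 for TAP1. Both transporter intervals overlapped those of B2M and TAPBP, and the TAP1 interval just met that of HLA-E. The difference between genes was not tested. The HLA-C interval, widened by vehicle replicate 3, reached 0.40. To set the transporter against the heavy chains within each array, the mean log2 value of HLA-C, HLA-E and HLA-F was subtracted from that of TAP1 and TAP2, a contrast chosen after the values were seen and given without a test. It was -1.17, -0.99 and -1.03 in vehicle and -0.58, -0.65 and -0.70 after ox-LDL. The groups were apart on every array, by a mean of 0.42, and vehicle replicate 3 lay between the other vehicle arrays. The heavy chain mean itself was 8.79, 8.83 and 8.61 in vehicle, lowest on vehicle replicate 3, and 8.71, 8.76 and 8.72 after ox-LDL (8.74 ± 0.12 and 8.73 ± 0.027, SD, n = 3 each). The zero of this contrast has no meaning, since it depends on the probes of each gene.

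**Figure D2:**
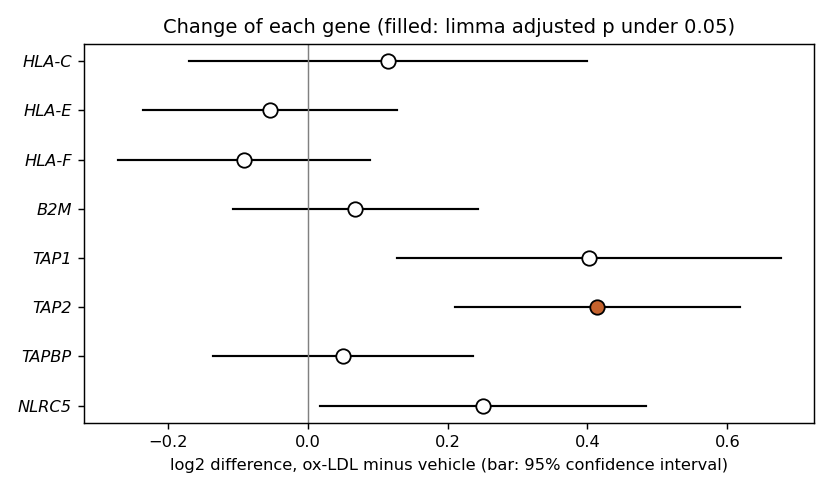
Log2 difference, ox-LDL minus vehicle, of each class I presentation gene with its 95% confidence interval from limma; a filled point passed at an adjusted p under 0.05. TAP2 (0.41) passed, the intervals of TAP1 and NLRC5 lie above 0, and those of the other 5 genes include 0.

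Counted together, 1 of the 8 genes passed higher and 0 passed lower (limma, Benjamini-Hochberg adjusted p under 0.05). The background was 3.48% of all tested probe sets higher and 3.29% lower, and 1 call among 8 genes is too few to be a result about the group. At an unadjusted p under 0.05 there were 3 of 8 (TAP1, TAP2 and NLRC5), against 5598 of 21448. The same 3 genes had all ox-LDL arrays above all vehicle arrays, as did 19.1% of all probe sets, and 0 of 8 had all ox-LDL arrays below, as did 17.7%. With 3 arrays against 3, the exact two-sided permutation test of a single gene cannot go below p = 0.1, which was its value for these 3 genes. The median log2 difference of the 8 genes was 0.091, beside -0.029 over all tested probe sets, and 6 of 8 differences were above 0, beside 44.9% of all. The study's cut-offs, p of 0.001 or less and a change of 1.5-fold or more, were applied here to the limma p-values. They took none of the 8 genes, beside 2.31% of all probe sets. No member reached 1.5-fold, the largest change being 1.33-fold for TAP2.

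The other genes of the route were read from 9 lists chosen by function, with earlier results of these data known. Of 91 measured genes in them, 7 passed higher and 7 passed lower, 15.4% in all, beside 6.77% of all probe sets. Of all tested probe sets, 21.4% did not exceed the negative control percentile in either group, while in the lists only HLA-DRA did not. The shares thus cover unlike sets, and the difference between them was not tested. HSPA5, GBP2 and SYVN1 kept their call without any 1 array. The other 11 (ERAP2, PSMB9, NFKB1, NFYB, GBP1, IRF9, ULBP1, ULBP3, HM13, MARCHF4 and SEL1L) lost it without any 1 ox-LDL array (adjusted p 0.0567 to 0.175). Of these, 10 also lost it without vehicle replicate 1 (0.0550 to 0.0847), 8 without vehicle replicate 2 (0.0559 to 0.103) and 0 without vehicle replicate 3.

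Upstream of the transporter, the immunoproteasome and its activator had 6 measured genes, of which 1 rose and 5 did not pass (median log2 difference 0.22). All 6 differences were above 0. PSMB9, a catalytic subunit that favours peptides fitting class I grooves, had log2 values of 9.29, 9.27 and 9.18 in vehicle and 9.62, 9.63 and 9.57 after ox-LDL, and rose by 0.36 (SE 0.071, adjusted p = 0.0332). Its gene is the neighbour of TAP1 in the RefSeq order, on the opposite strand, and the 2 genes point away from each other. The 250 bases before the PSMB9 start (chr6:32853942-32854191) held neither the interferon response element-like motif nor the NF-kB motif. However, this window overlaps the far end of the TAP1 window, so the stretch between the starts lies before both genes. The matches shown for TAP1 thus also lie before PSMB9, beyond its 250 bases. PSMB8, the subunit gene that lies between TAP2 and TAP1, differed by 0.24 (SE 0.073) and did not pass (adjusted p = 0.103). POMP, which assembles proteasomes, and PSME1, an activator subunit, had 0.35 (adjusted p = 0.151) and 0.17 (adjusted p = 0.204). POMP was lowest on vehicle replicate 3, and its difference was 0.20 without that array. Thus PSMB9 and TAP2, both in this gene cluster, passed, and TAP1 and PSMB8 beside them did not.

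None of the 3 catalytic subunits of the standard proteasome passed (median 0.082; PSMB5 0.15, PSMB6 0.082 and PSMB7 -0.053). Of the 5 cytosolic peptidases measured, which trim or destroy proteasome products, 0 passed (limma; median 0.32), with log2 differences of 0.25 for the aminopeptidase LAP3 (adjusted p = 0.0821), 0.32 for BLMH, 0.56 for NPEPPS and -0.11 for THOP1. Without vehicle replicate 3 the differences were 0.17 for NPEPPS, 0.21 for BLMH and -0.064 for THOP1, and the median was 0.17.

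In the endoplasmic reticulum, 1 of 11 loading and trimming genes rose, 1 fell and 9 did not pass (median -0.036). ERAP2, an aminopeptidase that trims peptides to class I length, had log2 values of 6.21, 6.36 and 6.14 in vehicle and 6.67, 6.86 and 6.68 after ox-LDL, and rose by 0.50 (SE 0.093, adjusted p = 0.0271). HSPA5, the general chaperone BiP, fell by 0.71 (SE 0.072, adjusted p = 0.00363). TAPBPL, a peptide editor related to tapasin, had a log2 difference of 0.23 (adjusted p = 0.222) and passed higher without vehicle replicate 3 (0.33, adjusted p = 0.0276). IRGQ, a factor in class I quality control, had -0.17 (adjusted p = 0.231).

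Of 14 measured genes of class I quality control and turnover, 3 fell, 1 rose and 10 did not pass (median -0.23), and 11 differences were below 0. SYVN1, the ubiquitin ligase HRD1 of endoplasmic reticulum-associated degradation, had log2 values of 11.18, 11.00 and 11.10 in vehicle and 10.24, 10.23 and 10.20 after ox-LDL, and fell by 0.87 (SE 0.075, adjusted p = 0.00226). SEL1L, its partner, fell by 0.40 (SE 0.080), and HM13, the signal peptide peptidase that also frees the leader peptides shown by HLA-E, by 0.42 (SE 0.069). MARCHF4, a membrane ubiquitin ligase that can remove class I from the surface, rose by 0.53 (SE 0.10, adjusted p = 0.0282). These ligases serve many other proteins, and the count of lower genes was 5 without vehicle replicate 3 and 1 without any 1 of the other arrays.

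**Figure D3:**
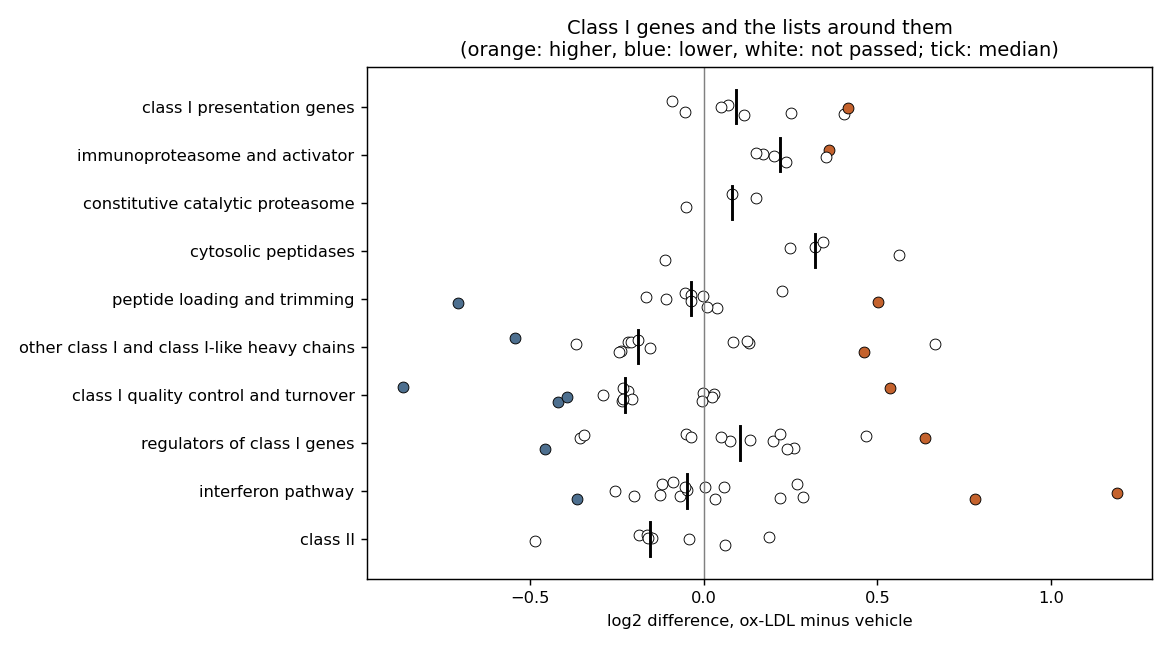
Log2 differences, ox-LDL minus vehicle, of the class I presentation genes (top) and of the 9 lists of other genes of the route, 1 point per gene, with called genes filled (orange higher, blue lower) and a black tick at each median. Medians run from -0.23 for quality control and turnover to 0.32 for cytosolic peptidases (0.17 without vehicle replicate 3), and called genes lie on both sides of 0.

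Among 14 measured regulators of class I genes, 1 rose, 1 fell and 12 did not pass (median 0.10). NFKB1, which encodes the p105 and p50 subunit of NF-kB, fell by 0.46 (SE 0.081, adjusted p = 0.0228), while RELA, the p65 subunit, had a log2 difference of -0.36 (adjusted p = 0.0715) and passed lower without vehicle replicate 3 (-0.27, adjusted p = 0.0430). NFYB, a subunit of the factor that binds CCAAT boxes in class I promoters, rose by 0.64 (SE 0.14, adjusted p = 0.0419). EZH2, the histone methyltransferase that can silence class I genes, had 0.20 (adjusted p = 0.201), or 0.12 without vehicle replicate 3. The median of the regulators was 0.032 without that array and 0.17 without vehicle replicate 1.

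Of 17 measured interferon pathway genes, 2 rose, 1 fell and 14 did not pass (median -0.048, or -0.030 without vehicle replicate 3 and 0.013 without vehicle replicate 1). GBP2 and GBP1, guanylate-binding proteins that interferon gamma induces, rose by 0.78 (SE 0.092, adjusted p = 0.00583) and 1.19 (SE 0.22, adjusted p = 0.0268). GBP1 had log2 values of 7.20, 7.34 and 6.45 in vehicle and 8.17, 8.18 and 8.21 after ox-LDL, and its difference was 0.92 without vehicle replicate 3. IRF9, a subunit of the factor that type I interferon activates, fell by 0.37 (SE 0.084, adjusted p = 0.0499). UBE2L6, the ISG15-conjugating enzyme, had 0.29 (adjusted p = 0.0551; it passed when vehicle replicate 3 was left out, at 0.28 and adjusted p = 0.0365).

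Of 13 other class I and class I-like heavy chains, 1 rose, 1 fell and 11 did not pass (median -0.19, or -0.13 without vehicle replicate 3). ULBP3 and ULBP1, both ligands of the activating receptor NKG2D on natural killer cells, moved in opposite directions. ULBP3 had log2 values of 8.14, 8.25 and 7.91 in vehicle and 8.54, 8.53 and 8.62 after ox-LDL, and rose by 0.46 (SE 0.10, adjusted p = 0.0456). ULBP1 had 6.56, 6.61 and 6.73 in vehicle and 6.08, 6.01 and 6.18 after ox-LDL, and fell by 0.54 (SE 0.083, adjusted p = 0.0142). MR1, which presents vitamin metabolites to innate-like T cells, had a log2 difference of 0.67 (adjusted p = 0.0593) and passed higher without vehicle replicate 1 (0.82, adjusted p = 0.0413) or 3 (0.48, adjusted p = 0.0237). HLA-G, a nonclassical chain, had a log2 difference of -0.24 (SE 0.081) and did not pass (limma adjusted p = 0.126). For HLA-G every ox-LDL array was below every vehicle array, as for 17.7% of all probe sets.

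None of the 8 measured class II genes passed (limma; median -0.16), and HLA-DRA did not exceed the negative control percentile in either group (log2 difference -0.49, adjusted p = 0.113, or -0.31 and 0.0440 without vehicle replicate 3). HLA-DPB1, HLA-DMA and HLA-DQB1 had differences of 0.19, -0.19 and -0.16. Without vehicle replicate 3 those of HLA-DMA and HLA-DQB1 were -0.035 and -0.061, and the class II median was -0.012.

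The 5 named genes outside the class I set whose values over the 6 arrays were most like the mean standardised profile of the 8 members were CAPRIN1, CCDC88A, TMEM30A, TDRD3 and SPDL1, with correlations of 0.997 to 0.999. All 5 were lowest on vehicle replicate 3, and none passed the test (log2 differences 0.19, 0.37, 0.23, 0.58 and 0.36). Without that array the differences were 0.12, 0.23, 0.13, 0.39 and 0.20, and TDRD3 passed (adjusted p = 0.0260). The members themselves followed that mean profile unevenly, with correlations of 0.84 for B2M, 0.81 for TAP1, 0.79 for HLA-C, 0.73 for TAP2, 0.65 for NLRC5, 0.14 for HLA-E, 0.027 for TAPBP and -0.34 for HLA-F. Each member is itself part of the mean profile, which raises its correlation with it. The 5 genes outside the set were picked as the highest of all named genes, so high values were certain. These correlations describe 6 arrays in 2 groups and include the difference between them.

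**Figure D4:**
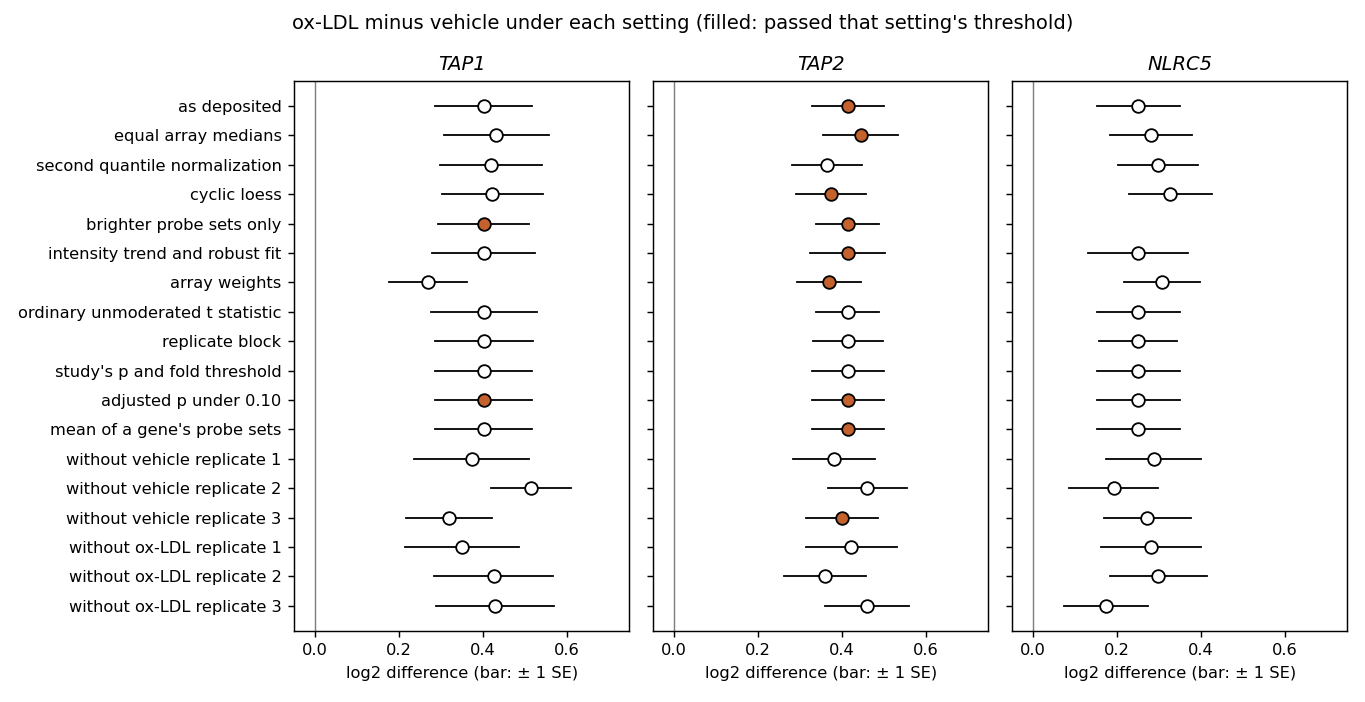
Log2 difference, ox-LDL minus vehicle, of TAP1, TAP2 and NLRC5 under each way of processing, with bars of ± 1 SE; filled points passed the threshold of that setting, and NLRC5 has no point among the brighter probe sets because it was not among them. All differences stay above 0, while the TAP2 call is lost in 9 of 17 alternatives.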

How the data were processed

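Per the submitters' processing notes the authors used RMA, and the deposited table holds 1 column of log2 values per array; which version, settings and genome build they used is not given in the sources used. RMA makes arrays alike and compresses values near background, which understates changes of dim genes. Total RNA was hybridised as biotinylated cDNA (500 ng input), and for arrays their number limits the precision.

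Of 24350 probe sets, 2902 controls were left out. The platform annotation gave 1 symbol for 17709 of the 21448 tested and none for 3739. Groups followed the titles. One limma model (lmFit, eBayes; limma 3.58.1, R 4.3.3) of ox-LDL minus vehicle gave differences, SE, 95% intervals and two-sided p-values, adjusted by Benjamini-Hochberg over all tested probe sets and called under 0.05. On simulated data the procedure recovered 40% of 1.5-fold and 75% of 2-fold changes, with 4 false among 119 calls. Smaller changes, such as those of the members, were not simulated, so a gene that did not pass may still have changed. Members and lists were chosen with earlier results of these data known. Named were all members, EHMT2, the 4 genes of each list with the smallest p and the 5 most alike; others were chosen after their values were seen. Same-numbered arrays did not deviate together (correlations -0.01, 0.03 and 0.02), so they were not paired. Other normalizations, filters, variance models and thresholds, a replicate block and leaving out each array were tried. Figures were drawn with matplotlib 3.10.9. Sequences came from RefSeq tables (GRCh38.p14).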

Additional observations from a re-analysis of the deposited data

How the results depend on the processing

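The count of all called probe sets (1451) was 2608 when only the brighter ones were kept, 2649 after a fit with an intensity trend, 3962 with array weights, 2837 at an adjusted p under 0.10, 550 with the replicate number as a block, 496 under the study's thresholds and 305 to 2670 with 1 array left out. For the pathway lists together (14), the counts were 23, 25, 26 and 20 in the first 4 of these settings, 4 with the replicate block, 3 under the study's thresholds and 3 to 22 with 1 array left out. The count of members called higher (1) was 2 among the brighter probe sets and at 0.10, where TAP1 (log2 difference 0.40, adjusted p = 0.0390 and 0.0891) joined TAP2. It was 0 after a second quantile normalization (TAP2 0.36, adjusted p = 0.0520), with an ordinary t statistic (0.41, 0.0710), with the replicate block (0.41, 0.0790) and under the study's thresholds (0.41), and 0 or 1 with 1 array left out (TAP2 0.36 to 0.46). No member was called lower in any of the 17 alternatives. The HLA-C difference ran from -0.013 to 0.18 with 1 array left out and turned sign without vehicle replicate 3, and that of TAPBP ran from -0.00014 to 0.092, turning without vehicle replicate 2 and after cyclic loess (-0.014). For the changes with a setting the cause was not tested beyond the smaller number of arrays or probe sets that some settings use. A signal near the negative controls limits HLA-DRA.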
